A study of Homo sapiens with 12 samples.

Results

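Interferon-stimulated genes (ISGs) were measured by RNA sequencing in ARPE-19 cells, an established human line derived from the retinal pigment epithelium. The set was a list of 42 gene symbols, and all 42 were found once among the 40591 named genes of the deposited count table. Of these, 33 had enough reads to be tested and 9 did not. Poly(A) RNA was sequenced from 4 groups of 3 libraries each. The WT libraries came from ARPE-19 cells for which no introduced open reading frame (ORF) is named. The GFP, GSTA4 and OSK libraries came from stable ARPE-19 cells sampled after 4 days of ORF expression. GFP is green fluorescent protein, a control ORF. GSTA4 is glutathione S-transferase alpha 4, an enzyme that detoxifies products of lipid peroxidation. OSK is read here as the reprogramming factors POU5F1 (OCT4), SOX2 and KLF4. The vector, the promoter that drives an ORF, and whether a stable line is 1 clone or a pool are not given in the sources used here, nor are the culture and handling of WT. The effect of an ORF and other differences between the lines therefore cannot be told apart. Nothing says that the libraries of a group came from separate cultures, so the p-values measure only the spread between these libraries, which may be technical.

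Type I interferons bind a receptor of IFNAR1 and IFNAR2, which carries the kinases TYK2 and JAK1. The kinases phosphorylate transcription factors such as STAT2, which joins IRF9 in a complex that binds the interferon-stimulated response element (ISRE) in the promoters of ISGs. Many ISG products block a step of viral infection, such as entry, translation or genome replication, and others, among them STAT2, IRF7 and IRF9, feed back on the pathway itself. Several are also expressed at a basal level in cells that have met no interferon.

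Promoter sequences are shown here because the ISRE is what defines much of the set at the level of DNA. RefSeq promoter windows on GRCh38.p14, from 250 bases before to 50 bases after an annotated transcript start, were available for 34 of the 42 genes. They were searched on both strands for the ISRE core, spelled GAAANNGAAA, and for the gamma-activated site (GAS), an element of the response to interferon gamma, spelled TTCNNNGAA. The ISRE letters were present for 22 of the 34 genes (64.7%), against 4.38% of the 27305 genes with a window. The GAS letters were present for 10 of the 34 (29.4%), against 9.38% of all. A match is a description of these letters and not evidence of a bound factor. The 150 bases before the start are printed 5′ to 3′ on the strand of the gene. Matches that lie wholly within them are in capitals. The genes printed are 6 with an ISRE match whose values are described below, and IRF1, whose match is a GAS.
ISG15, chr1:1013347-1013496, plus strand: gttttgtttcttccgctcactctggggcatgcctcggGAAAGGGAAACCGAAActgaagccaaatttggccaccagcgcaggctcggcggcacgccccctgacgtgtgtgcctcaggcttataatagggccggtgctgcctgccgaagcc
IFI6, chr1:27672193-27672342, minus strand: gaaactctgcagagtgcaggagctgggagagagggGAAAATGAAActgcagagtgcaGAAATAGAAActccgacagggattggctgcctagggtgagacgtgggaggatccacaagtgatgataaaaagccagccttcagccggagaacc
IFIT1, chr10:89392473-89392622, plus strand: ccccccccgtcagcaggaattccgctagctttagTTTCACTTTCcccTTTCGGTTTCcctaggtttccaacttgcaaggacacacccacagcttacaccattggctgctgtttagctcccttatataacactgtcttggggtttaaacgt
IFITM3, chr11:320861-321010, minus strand: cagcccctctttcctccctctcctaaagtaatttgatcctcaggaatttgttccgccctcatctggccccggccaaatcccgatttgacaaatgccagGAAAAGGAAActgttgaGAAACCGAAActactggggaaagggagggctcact
OAS3, chr12:112938324-112938473, plus strand: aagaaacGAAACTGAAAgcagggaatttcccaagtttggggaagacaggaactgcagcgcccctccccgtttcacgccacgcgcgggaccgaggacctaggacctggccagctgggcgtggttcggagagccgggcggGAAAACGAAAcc
ISG20, chr15:88638866-88639015, plus strand: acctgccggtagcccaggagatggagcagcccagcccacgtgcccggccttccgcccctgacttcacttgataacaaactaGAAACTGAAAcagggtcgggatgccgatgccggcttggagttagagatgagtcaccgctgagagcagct
IRF1, chr5:132490774-132490923, minus strand: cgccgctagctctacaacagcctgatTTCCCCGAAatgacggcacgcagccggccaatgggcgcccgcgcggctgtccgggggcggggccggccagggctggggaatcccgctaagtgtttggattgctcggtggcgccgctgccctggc
ISG15 carried overlapping ISRE matches, and IFIT1 carried its matches on the opposite strand (TTTCNNTTTC). A further IFI6 match, at chr1:27672339-27672348, begins before the printed stretch, so its last letters stand there in lower case. The windows of PARP9 and DTX3L, a head-to-head gene pair, held the same match of 10 bases at chr3:122564332-122564341.

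Named genes received 12526826 to 16940870 reads per library, so a count of 0 leaves room for up to 3 reads, worth 0.177 to 0.228 CPM (TMM-scaled counts as a share of library size; counting error only). The introduced genes matched the labels, with GSTA4 at 396 to 431 CPM in the GSTA4 libraries and POU5F1, SOX2 and KLF4 at 623 to 949 CPM in OSK. The pigment epithelium markers MITF, OTX2, PMEL, TYR and TYRP1 were read in every library, while RPE65, DCT and TTR did not exceed 0.64 CPM. The summed level of all 13 markers of that list was 651 to 860 CPM in WT, 992 to 1160 in GFP, 457 to 535 in GSTA4 and 607 to 628 in OSK. Against those sums, LRAT was higher in GSTA4 than in GFP by 1.87 on the log2 scale (adjusted p 1.15e-06) and RDH5 in OSK by 1.44 (adjusted p 2.15e-06). The 5 epithelial markers summed to 1510 to 1970 CPM in WT, 1100 to 1260 in GFP, 956 to 996 in GSTA4 and 698 to 790 in OSK. The order of these sums was set by KRT8 and KRT18 and was opposite to that of the ISGs below. CDH1 of the same list followed another order. It was higher in GFP than in WT by 2.28 (adjusted p 2.4e-05) and lower in GSTA4 than in GFP by -6.22 (adjusted p 2.11e-09). The 9 mesenchymal markers summed to 957 to 996 CPM in OSK and to 1310 to 1610 in the other groups. Within that list the genes differed in direction between GSTA4 and GFP. COL1A1 was lower in GSTA4 by -4.19 (adjusted p 2.97e-12) and PDGFRB by -0.29 (adjusted p 0.00201), while VIM was higher by 0.41 (adjusted p 0.00596). The part of these differences in the results below was not tested. The 9 leukocyte markers summed to at most 2.89 CPM. A pair of libraries stood apart. In GFP replicate 1, 27349 named genes had at least 1 read, where the range elsewhere was 19488 to 22073. WT replicate 1 differed from the other WT libraries by a chi-square per degree of freedom of 15.0 and 17.4, where those 2 differed from each other by 2.54.

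Most of the 33 tested genes lay lowest in WT, and most lay highest in OSK. Values below are listed in the order of replicates 1, 2 and 3. The lowest group mean was that of WT for 20 of the 33 tested genes (60.6%, against 23.6% of all 15179 genes tested). The highest was that of OSK for 20 of 33 (60.6%, against 31.2%). The first count includes IFITM1 and BST2, and the second OAS1 and BST2. No WT library of these genes was above the cutoff of the filter on low reads. Summed over the 33 genes, the level was 619 to 672 CPM in WT, 731 to 772 in GFP, 883 to 931 in GSTA4 and 933 to 1040 in OSK, sums led by IFITM3, STAT2 and TRIM22. In bulk RNA, fewer cells that express a gene and less RNA per cell cannot be told apart. Per kilobase of GENCODE 29 exon, the highest mean levels over the 4 groups were those of IFITM3 at 95.2 CPM per kb, STAT2 at 29.7, IFITM2 at 24.0 and TRIM22 at 19.6. At the other end, 11 of the 42 genes had a mean under 1 CPM in every group.

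Of the 33 tested genes, 12 were higher in GFP than in WT and none was lower at a Benjamini-Hochberg adjusted p under 0.05 (edgeR quasi-likelihood test). That is 36.4% called, where 22.2% of all genes tested were called, 11% higher and 11.2% lower. At an unadjusted p under 0.05, 1 was lower, and with DESeq2 none was lower and 13 were higher. The median log2 fold change of the 33 was 0.29, against 0.00979 over all genes tested. In GSTA4 against GFP, 8 genes were higher and 1 was lower (27.3% called, against 29.2% of all genes, of which 14.7% higher and 14.6% lower), with a median of 0.155 against 0.00824. The share called was thus close to the background there. In OSK against GFP, 15 were higher and 4 lower (57.6%, against 45.9%, of which 23.1% higher and 22.8% lower), with a median of 0.452 against -0.019. In OSK against GSTA4, 11 were higher and 4 lower (45.5%, against 47.8%, of which 24.1% higher and 23.8% lower), with a median of 0.304 against -0.0136. Here too the share called was close to the background. Any difference among the 4 groups was called for 25 of 33 genes (75.8%), against 66.9% of all genes tested. These are counts over genes that passed the filter on low reads, which a gene can pass through the group where it is high. OAS1 did so through OSK. IFITM1 would have failed without the GSTA4 or without the OSK libraries, and BST2 without those of any 1 of GFP, GSTA4 and OSK. GFP enters 3 of the 4 comparisons, GSTA4 and OSK 2 each, so the comparisons are not independent of each other. Scaling by library size alone moved the higher share of all called genes in OSK against GFP from 50.4% to 39.8%, with 13 ISGs then higher and 4 lower. In OSK against GSTA4 it moved that share from 50.3% to 42.5%, with 9 ISGs then higher and 5 lower. Without GFP replicate 2, the count higher in GFP than in WT was 7 instead of 12, and the count lower in OSK than in GFP was 2 instead of 4, as it also was without OSK replicate 3. Without WT replicate 2, 1 ISG (IFIT1) was lower in GFP than in WT.

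**Figure D1:**
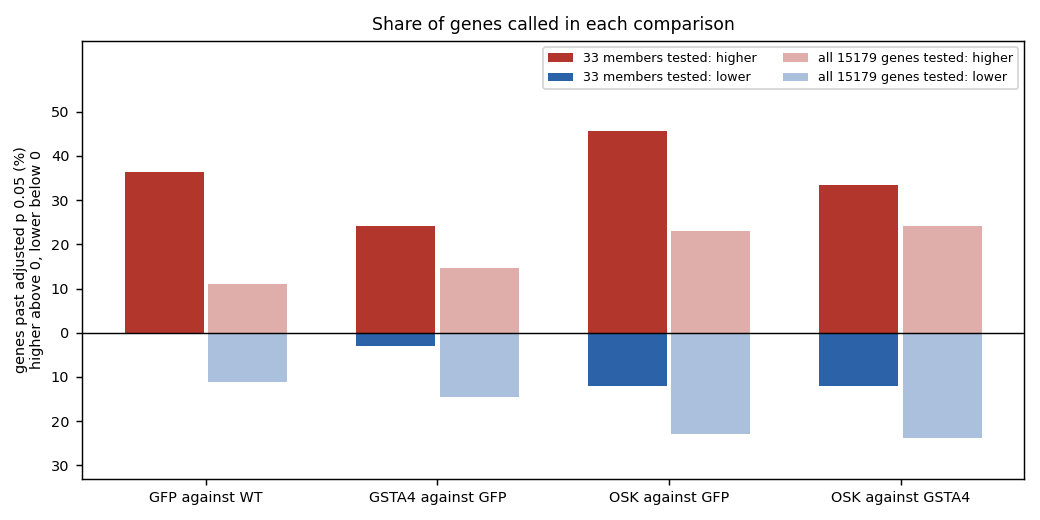
Percent of genes past an adjusted p of 0.05 in each comparison, higher above the 0 line and lower below it, for the 33 tested interferon-stimulated genes (dark bars) and for all 15179 genes tested (pale bars). The dark bar for higher genes exceeds the pale bar in each comparison (36.4% against 11% in GFP against WT), and the dark bar for lower genes is the shorter one.

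**Figure D2:**
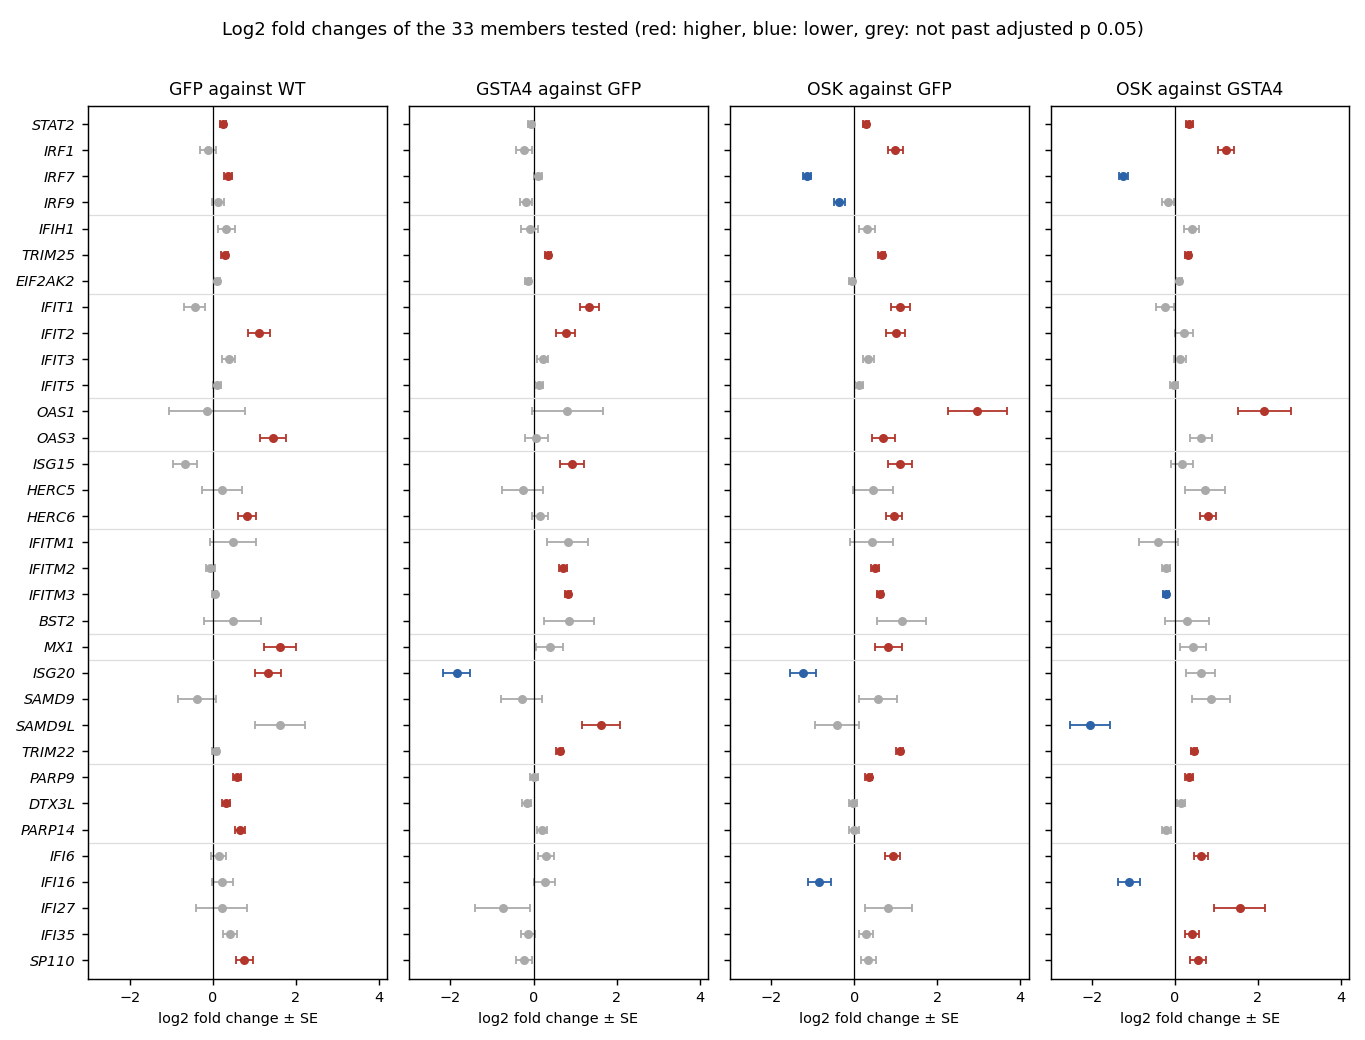
Log2 fold change of each of the 33 tested genes with its standard error, in 4 panels by comparison, ordered by role. Red marks genes called higher, blue genes called lower and grey genes that did not pass. No blue point appears in GFP against WT, and IRF7 and IFI16 are blue in both OSK panels.

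The regulators of transcription split in OSK. IRF7, which drives later interferon genes (chr11:612553-615999, minus strand), read 26.2, 27.3 and 28.4 CPM in WT, 31.6, 39.1 and 34.6 in GFP, 37.4, 41 and 35.6 in GSTA4, and 15.2, 18.3 and 14.4 in OSK. All OSK libraries lay below every other library. OSK was lower by -1.14 on the log2 scale against GFP (SE 0.105, adjusted p 1.91e-08) and by -1.25 against GSTA4 (SE 0.105, adjusted p 3.04e-09). IRF1, an activator induced chiefly by interferon gamma, went the other way, with 11.1, 7.93 and 7.26 CPM in WT, 10, 8.75 and 5.5 in GFP, 6.93, 7.13 and 6.54 in GSTA4, and 18, 15.1 and 15.1 in OSK. The OSK libraries lay above all others. The log2 fold change of IRF1 was 0.99 against GFP (SE 0.185, adjusted p 0.000175) and 1.22 against GSTA4 (SE 0.188, adjusted p 1.55e-05). Of its exon bases, 22% lie under genes on the other strand, and the library kit does not mark strand. That share was 21.3% for IFITM3, 20.9% for SP110 and 38.3% for XAF1, which are described below. STAT2, the subunit that gives the STAT complex its activation domain, had means of 152.6 ± 17.6, 180.9 ± 8.57, 173.1 ± 14.7 and 219.9 ± 12.7 CPM in WT, GFP, GSTA4 and OSK (SD, n = 3). It was higher in OSK than in GFP by 0.28 and than in GSTA4 by 0.34 on the log2 scale. Its rise of 0.25 in GFP over WT (adjusted p 0.0298) was lost without WT replicate 1 (adjusted p 0.152), GFP replicate 1 (0.0988) or GFP replicate 2 (0.0812). The rise of IRF7 by 0.36 in GFP over WT (adjusted p 0.0132) was lost without GFP replicate 2 (0.0868). IRF9, the DNA-binding partner of the STAT pair, had means of 7.832, 8.582, 7.597 and 6.705 CPM. Its call as lower in OSK than in GFP (log2 fold change -0.36, adjusted p 0.0475) was lost without any 1 of the GFP and OSK libraries (adjusted p 0.0619 to 0.124) and with DESeq2 (0.0882). It shares 48.4% of its exon bases with an overlapping read-through gene.

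Among the genes of RNA sensing, TRIM25 moved and its companions did not pass. TRIM25, the ubiquitin ligase linked to activation of RIG-I, read 36.8, 33.7 and 37.2 CPM in WT, 40.2, 45.9 and 45.6 in GFP, 52, 57.6 and 59.2 in GSTA4, and 66.7, 70.9 and 70.6 in OSK. The 4 groups did not overlap and rose in that order. The log2 fold changes were 0.29 in GFP over WT (SE 0.0789, adjusted p 0.0122), 0.36 in GSTA4 over GFP (SE 0.0772, adjusted p 0.00149), 0.66 in OSK over GFP (SE 0.0765, adjusted p 4.93e-07) and 0.30 in OSK over GSTA4 (SE 0.0752, adjusted p 0.00217). The first of these was lost without WT replicate 2 (adjusted p 0.0592) or GFP replicate 2 (0.0571). IFIH1 (MDA5), a sensor of long double-stranded RNA, had means of 6.66 CPM in WT and 10.37 in OSK and was called in none of the 4 comparisons. It was called in OSK against GSTA4 without GSTA4 replicate 2 (adjusted p 0.023) or OSK replicate 1 (0.0404). EIF2AK2 (PKR), the kinase that halts translation on double-stranded RNA, lay between 66.1 and 81.2 CPM in all 12 libraries and was called in none.

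In the IFIT family, whose products bind viral RNA and translation factors, IFIT1 and IFIT2 rose in both GSTA4 and OSK over GFP. IFIT1 (chr10:89392546-89406486, plus strand) read 6.35, 2.72 and 4.9 CPM in WT, 3.12, 4.01 and 3.26 in GFP, 8.13, 9.16 and 9.22 in GSTA4, and 7.83, 8.17 and 6.4 in OSK. The GSTA4 and OSK libraries lay above all GFP libraries. The log2 fold change over GFP was 1.35 in GSTA4 (SE 0.23, adjusted p 0.000144) and 1.11 in OSK (SE 0.233, adjusted p 0.000576). In GFP against WT it was -0.44 (adjusted p 0.208), and that value was called without WT replicate 2 (log2 fold change -0.70, adjusted p 0.0233). IFIT2 followed another order, with 2.3, 2.86 and 2.07 CPM in WT, 3.35, 7.74 and 4.35 in GFP, 8.58, 7.96 and 9.91 in GSTA4, and 8.82, 10.4 and 11.7 in OSK. GFP replicate 2 stood apart from the other GFP libraries and came close to the GSTA4 range. IFIT2 was higher by 1.11 in GFP over WT (SE 0.263, adjusted p 0.00505), by 0.77 in GSTA4 over GFP (SE 0.229, adjusted p 0.0144) and by 1.00 in OSK over GFP (SE 0.226, adjusted p 0.00113). Its first call was lost without GFP replicate 2 (log2 fold change 0.69, adjusted p 0.0578), and its second without GFP replicate 1 (adjusted p 0.0889), GFP replicate 3 (0.0674) or GSTA4 replicate 3 (0.0631). Without GFP replicate 2 the second was 1.18 (adjusted p 0.00043). IFIT3 had means of 10.62, 13.8, 16.07 and 17.53 CPM in the order WT, GFP, GSTA4, OSK and passed in none of the 4 comparisons (adjusted p 0.0703 for GFP over WT, 0.056 for OSK over GFP). Both values passed under some alternatives, the first without WT replicate 3 (0.0449) or GFP replicate 1 (0.0399) and with the replicate number as a block (0.0245), the second without GFP replicate 3 (0.042) and with the block (0.0177). IFIT5 lay between 24.9 and 33.8 CPM in all libraries and was called in none.

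The OAS enzymes make the 2′-5′ oligoadenylates that switch on RNase L. OAS1 read 0.498, 0.22 and 0 CPM in WT, 0.152, 0.43 and 0.0679 in GFP, 0.699, 0.0751 and 0.344 in GSTA4, and 1.64, 2.09 and 1.48 in OSK. It did not exceed 0.699 CPM outside OSK, while each OSK library had more than any other library. The fitted log2 fold change was 2.96 over GFP (SE 0.71, adjusted p 0.00181) and 2.15 over GSTA4 (SE 0.639, adjusted p 0.00842). OAS1 had 21 to 33 reads in OSK and 0 to 11 elsewhere, and it would not have passed the filter without the OSK libraries, so the test was run on a gene kept by the group where it is high. With no filter the adjusted p was 5.23e-05 over GFP and 0.00195 over GSTA4, and with a filter on a mean of 1 CPM it was not tested. With so few reads these sizes are imprecise. The former became 3.91 without GFP replicate 2, and the latter 2.97 without GSTA4 replicate 1 and was lost without GSTA4 replicate 2 (adjusted p 0.0565). OAS3, the longest family member, read 0.871, 1.84 and 2.54 CPM in WT, 4.49, 5.73 and 4.21 in GFP, 3.49, 5.25 and 6.47 in GSTA4, and 5.76, 9.05 and 8.65 in OSK. Every WT library lay below every other library. OAS3 was higher by 1.45 in GFP over WT (SE 0.315, adjusted p 0.00253) and by 0.70 in OSK over GFP (SE 0.269, adjusted p 0.0377). The second call was lost without GFP replicate 1 (adjusted p 0.101) or 3 (0.114), without OSK replicate 2 (0.141) or 3 (0.11), and with scaling by library size alone (0.0596). In OSK against GSTA4 the log2 fold change of OAS3 was 0.63 (adjusted p 0.0568), and it passed without GSTA4 replicate 3 (0.0309) or OSK replicate 1 (0.0242) and with DESeq2 (0.0453).

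ISG15 is a ubiquitin-like protein, and HERC5 and HERC6 are ligases of the family that attaches it. ISG15 read 2.36, 2.5 and 1.89 CPM in WT, 1.52, 1.36 and 1.36 in GFP, 3.11, 2.63 and 2.34 in GSTA4, and 3.91, 2.66 and 2.53 in OSK. The GFP libraries were the lowest of the 12, so its order differed from that of most of the set. It was higher than in GFP by 0.93 in GSTA4 (SE 0.29, adjusted p 0.02) and by 1.10 in OSK (SE 0.287, adjusted p 0.00372). Against WT, the values were 0.27 for GSTA4 (adjusted p 0.468) and 0.43 for OSK (adjusted p 0.202). The GSTA4 call was lost without GFP replicate 2 (adjusted p 0.0583), GFP replicate 3 (0.0537) or GSTA4 replicate 1 (0.0836). HERC6 read 2.86, 3.38 and 2.54 CPM in WT, 5.09, 5.38 and 4.96 in GFP, 5.46, 5.03 and 6.67 in GSTA4, and 9.89, 7.66 and 12.4 in OSK. WT lay below and OSK above all other libraries. It was higher by 0.82 in GFP over WT (SE 0.216, adjusted p 0.00975), by 0.95 in OSK over GFP (SE 0.192, adjusted p 0.000389) and by 0.80 in OSK over GSTA4 (SE 0.189, adjusted p 0.00153). HERC5, the main ISG15 ligase in human cells, had means from 1.256 to 2.103 CPM and was called in none of the 4 comparisons, though it was called in OSK against GFP without GFP replicate 1 and WT replicate 1 together (adjusted p 0.0476).

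The IFITM proteins sit in membranes and hinder viral fusion, and IFITM3 was the most abundant ISG per length. IFITM3 read 95.7, 94.6 and 92.2 CPM in WT, 88, 99.4 and 104 in GFP, 175, 174 and 172 in GSTA4, and 136, 154 and 157 in OSK. Neither the GSTA4 nor the OSK libraries overlapped those of WT and GFP. It was higher than in GFP by 0.84 in GSTA4 (SE 0.0673, adjusted p 5.88e-09) and by 0.62 in OSK (SE 0.0674, adjusted p 2.11e-07). It was lower in OSK than in GSTA4 by -0.22 (SE 0.0659, adjusted p 0.00919), a call lost without OSK replicate 1 (0.107). IFITM2 was likewise highest in GSTA4, with means of 30.32 ± 1.86 in WT, 29.09 ± 4.52 in GFP, 47.71 ± 3 in GSTA4 and 41.19 ± 1.99 CPM in OSK (SD, n = 3). Its log2 fold change over GFP was 0.71 in GSTA4 (adjusted p 1.18e-05) and 0.50 in OSK (adjusted p 0.000302). IFITM1, at 0.294 to 0.976 CPM, was called in none of the 4 comparisons. These 3 genes share sequence, since 32.0%, 34.1% and 17.4% of the 50-base stretches in the transcripts of IFITM1, IFITM2 and IFITM3 occur in other genes, and reads could be split among them. BST2 (tetherin), which holds budding virions on the cell, lay between 0.136 and 1.33 CPM and was called in none, though it was called in OSK against GFP without GFP replicate 1 (adjusted p 0.033).

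MX1, a dynamin-like GTPase that blocks influenza and other viruses (chr21:41420304-41459214, plus strand), had the largest fitted change among the 12 ISGs called in GFP against WT. It read 0.747, 0.514 and 0.59 CPM in WT, 2.81, 1.72 and 1.29 in GFP, 1.97, 2.33 and 3.3 in GSTA4, and 2.99, 2.85 and 4.43 in OSK. Every WT library lay below every library with an ORF. The log2 fold change was 1.62 in GFP over WT (SE 0.395, adjusted p 0.00584) and 0.82 in OSK over GFP (SE 0.323, adjusted p 0.0432). The first rests on 12, 7 and 10 reads in WT and ran from 1.26 to 1.85 under the alternatives, where it stayed called. The second call was lost without GFP replicate 2 (adjusted p 0.121) or 3 (0.175), without OSK replicate 1 (0.0538) or 3 (0.205), and with scaling by library size alone (0.0726).

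**Figure D3:**
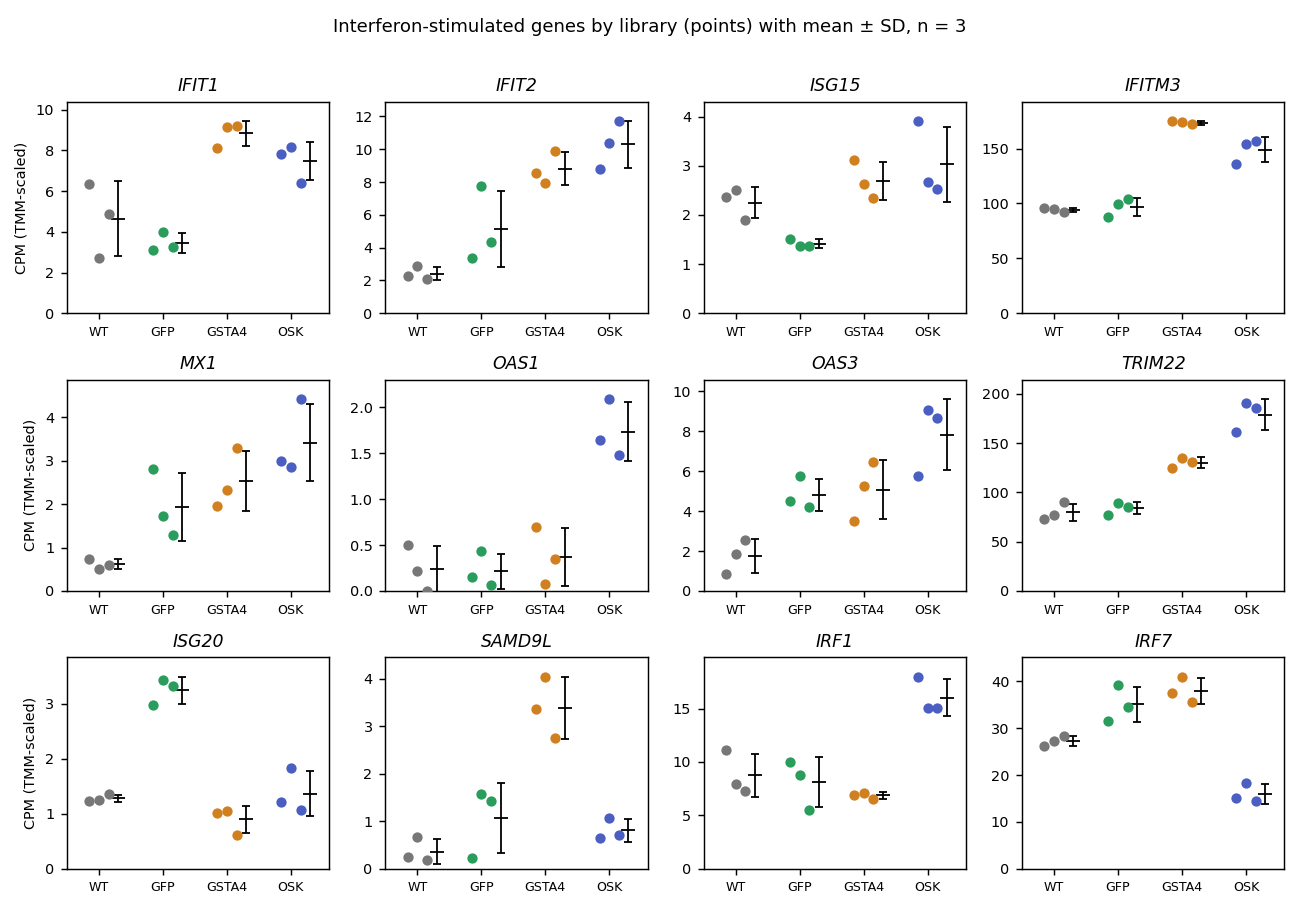
CPM after TMM scaling of 12 interferon-stimulated genes in each library (points, replicates 1 to 3 from left to right) by group, with the mean and SD of n = 3 beside them, each panel on its own linear axis from 0, where a lower SD bar that would pass 0 ends. ISG20 is highest in GFP, SAMD9L in GSTA4 and OAS1 in OSK, while IRF7 is lowest in OSK.

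ISG20 and SAMD9L each peaked in 1 stable line. ISG20, an exonuclease that degrades single-stranded RNA (chr15:88636153-88656483, plus strand), read 1.24, 1.25 and 1.36 CPM in WT, 2.97, 3.44 and 3.33 in GFP, 1.02, 1.05 and 0.619 in GSTA4, and 1.21, 1.84 and 1.06 in OSK. The GFP libraries lay above all 9 others. ISG20 was higher by 1.33 in GFP over WT (SE 0.313, adjusted p 0.00456), and lower than in GFP by -1.85 in GSTA4 (SE 0.331, adjusted p 0.000232) and by -1.23 in OSK (SE 0.312, adjusted p 0.00285). Against WT neither line passed, with log2 fold changes of -0.52 for GSTA4 (adjusted p 0.272) and 0.10 for OSK (adjusted p 0.839). SAMD9L, a restriction factor of poxviruses and a brake on growth (chr7:93130055-93148369, minus strand), read 0.249, 0.661 and 0.177 CPM in WT, 0.228, 1.58 and 1.43 in GFP, 3.37, 4.05 and 2.75 in GSTA4, and 0.64, 1.08 and 0.704 in OSK. The GSTA4 libraries lay above all others, and GFP replicate 1 lay with WT. SAMD9L was higher by 1.63 in GSTA4 over GFP (SE 0.461, adjusted p 0.0111) and lower by -2.05 in OSK against GSTA4 (SE 0.476, adjusted p 0.00127). The former was lost without GSTA4 replicate 2 (adjusted p 0.0541). In GFP against WT its log2 fold change of 1.62 did not pass (adjusted p 0.0561), but passed without GFP replicate 1 (2.09, adjusted p 0.0069) or WT replicate 2 (2.31, adjusted p 0.0257) and with DESeq2 (adjusted p 0.0302). Its neighbour and relative SAMD9 lay between 0.275 and 1.33 CPM and was called in none.

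TRIM22, a ubiquitin ligase active against several viruses (chr11:5689689-5737089, plus strand), read 72.7, 76.7 and 89.8 CPM in WT, 77.3, 89.2 and 85.2 in GFP, 125, 135 and 131 in GSTA4, and 161, 191 and 185 in OSK. WT and GFP overlapped, and GSTA4 and OSK lay above them without overlap. Its log2 fold change was 0.07 in GFP against WT (adjusted p 0.574), 0.63 in GSTA4 over GFP (SE 0.0811, adjusted p 4.58e-06), 1.09 in OSK over GFP (SE 0.0808, adjusted p 6.31e-10) and 0.46 in OSK over GSTA4 (SE 0.0788, adjusted p 6.04e-05). Of its exon bases, 10.7% are shared with OR56B1, an odorant receptor gene on the same strand.

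PARP9, DTX3L and PARP14 encode proteins that act in interferon signalling, and all 3 were higher in GFP than in WT. PARP9 read 11.9, 12.8 and 11.7 CPM in WT, 19.1, 18.3 and 17.5 in GFP, 17.8, 19.2 and 18.4 in GSTA4, and 21.9, 23.2 and 24.3 in OSK. WT lay below and OSK above the other groups, and GFP and GSTA4 overlapped. Its log2 fold change was 0.59 in GFP over WT (SE 0.0997, adjusted p 0.000272), 0.34 in OSK over GFP (SE 0.0948, adjusted p 0.00557) and 0.33 in OSK over GSTA4 (SE 0.0944, adjusted p 0.00698). PARP14 had means of 15.86 ± 1.44, 25.03 ± 3.43, 28.97 ± 4.02 and 25.03 ± 1.81 CPM in WT, GFP, GSTA4 and OSK (SD, n = 3). It rose by 0.66 in GFP over WT (adjusted p 0.000565) and was called in none of the other 3 comparisons. DTX3L, which shares its ISRE match with PARP9, had means of 28.76, 35.82, 31.96 and 35.27 CPM in the same order. Its call in GFP over WT (log2 fold change 0.32, adjusted p 0.027) was lost without WT replicate 1 (adjusted p 0.155), GFP replicate 2 (0.0736) or GFP replicate 3 (0.11).

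Among the IFI genes and SP110, IFI6 and IFI16 went opposite ways in OSK. IFI6, a small membrane protein that restricts flaviviruses, read 8.09, 5.14 and 6.37 CPM in WT, 6.31, 8.89 and 6.52 in GFP, 10.2, 7.21 and 9.29 in GSTA4, and 13.4, 12.5 and 15.5 in OSK. OSK lay above all other libraries, which overlapped. IFI6 was higher in OSK by 0.93 over GFP (SE 0.18, adjusted p 0.000253) and by 0.62 over GSTA4 (SE 0.175, adjusted p 0.0056). IFI16, a sensor of viral DNA, read 2.59, 3.94 and 3.6 CPM in GFP, 4.26, 4.65 and 3.37 in GSTA4, and 2.42, 1.9 and 1.34 in OSK, with a WT mean of 2.89 ± 0.375 (SD, n = 3). All OSK values lay below those of the other 9 libraries. It was lower in OSK by -1.12 against GSTA4 (SE 0.269, adjusted p 0.00175) and by -0.84 against GFP (SE 0.275, adjusted p 0.0163), the latter lost without GFP replicate 2 (adjusted p 0.0703) or OSK replicate 3 (0.0831). IFI27, a mitochondrial protein, read 0.445, 0.3 and 0.275 CPM in GSTA4 and 1.07, 0.823 and 1.2 in OSK. The call of 1.56 between them (SE 0.609, adjusted p 0.0406) was lost without any 1 of those 6 libraries (adjusted p 0.0582 to 0.128). IFI35 had means of 9.698 ± 1.75 in GSTA4 and 12.99 ± 2.09 CPM in OSK (SD, n = 3), and their libraries overlapped. That call (log2 fold change 0.42, adjusted p 0.0449) was lost without GSTA4 replicate 2 (0.206) or 3 (0.0889), without OSK replicate 2 (0.136) or 3 (0.15), and with scaling by library size alone (0.0802). SP110, a nuclear body protein, read 5.16, 4.7 and 5.96 CPM in WT, 8.97, 10.3 and 7.68 in GFP, 8.01, 9.91 and 5.3 in GSTA4, and 9.61, 12 and 12.4 in OSK. WT lay below GFP and OSK, and GSTA4 overlapped all 3. SP110 was higher by 0.76 in GFP over WT (SE 0.2, adjusted p 0.00975), which was lost without GFP replicate 2 (0.0582), and by 0.56 in OSK over GSTA4 (SE 0.189, adjusted p 0.0198), which was lost without GSTA4 replicate 3 (0.138), OSK replicate 2 (0.0674) or OSK replicate 3 (0.068).

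The remaining 9 genes did not pass the filter on low reads. They were OAS2 and OASL of the OAS family, USP18, the protease that removes ISG15, MX2, RSAD2 (viperin), CMPK2, IFI44, IFI44L and XAF1. Several of them are among the ISGs most strongly induced by interferon in other settings. Their summed level was 0.661 to 1.06 CPM in WT, 0.717 to 5.25 in GFP, 0.976 to 3.23 in GSTA4 and 0.854 to 1.46 in OSK. GFP replicate 1 held 69 of these reads, against 9 to 47 in each of the other libraries. OAS2, OASL, MX2, RSAD2 and XAF1 had 13, 11, 15, 10 and 4 reads in GFP replicate 1 and 0 to 2 in each of the other GFP libraries. The leukocyte list held 38 reads in the same library, against 0 to 13 in each of the others, and the part of this in the values of the 9 genes was not tested. With no filter on reads, OAS2 and USP18 were called higher in GFP than in WT (adjusted p 0.0407 and 0.0185) and MX2 lower in GSTA4 than in GFP (0.0363). Without GFP replicate 1 those values were 0.66, 0.107 and 0.538. IFI44L was not called in OSK against GSTA4 with no filter (log2 fold change -3.06, adjusted p 0.0532). It was called lower there once GFP replicate 1 was also left out (0.0292). It had 0, 2 and 0 reads in OSK and 4, 3 and 12 in GSTA4. CMPK2, a mitochondrial nucleotide kinase next to RSAD2, read 4, 10 and 8 in OSK and 6, 3 and 2 in GSTA4, against 0 to 2 in each WT and GFP library.

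**Figure D4:**
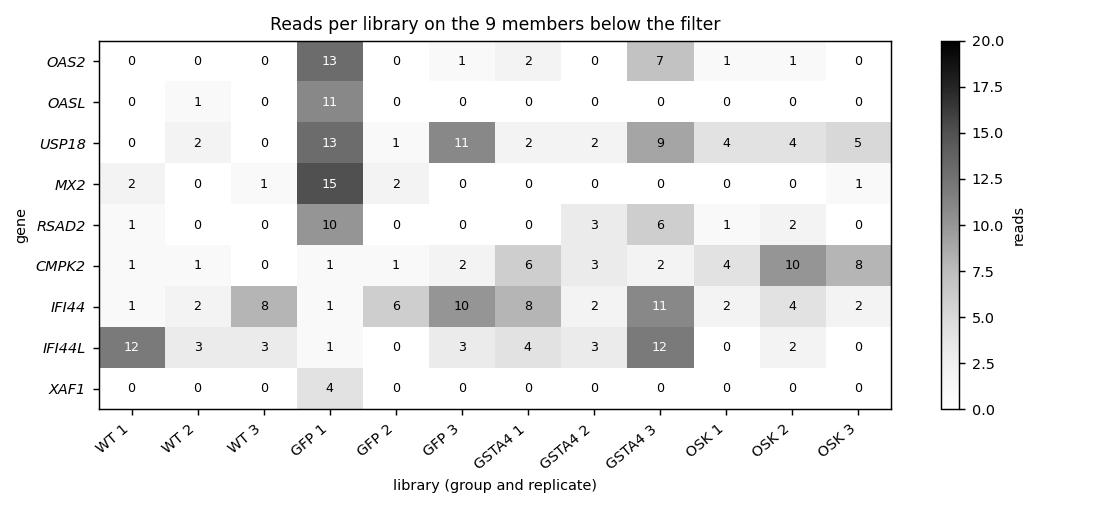
Reads per library (columns) on the 9 interferon-stimulated genes below the filter (rows), with the count printed in each cell and darker cells for more reads. The column of GFP replicate 1 holds 13, 11, 13, 15 and 10 reads for OAS2, OASL, USP18, MX2 and RSAD2, and IFI44L has 12 reads in both WT replicate 1 and GSTA4 replicate 3.

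Upstream of the set, no reads were found on IFNB1 or IFNA2, nor on the chemokine ISGs CXCL10 and CXCL11, in any of the 12 libraries, which allows up to 0.228 CPM in the shallowest. TREX1, a broadly expressed exonuclease of the negative regulators, was also listed at 0 in all 12. All of its exon bases lie under those of ATRIP in GENCODE 29, so a 0 in the table need not mean that a gene has no RNA. Of the 10 interferon ligands listed, IFNE alone was tested, with means from 1.363 to 2.192 CPM, and it was called in none of the 4 comparisons. The ligands other than IFNB1, IFNA2 and IFNE had reads in some library but too few to be tested. Of 13 tested genes for receptors and signalling, 3 were lower and none higher in GFP than in WT (5 and 0 at an unadjusted p under 0.05), 1 was higher and 3 lower in GSTA4 than in GFP, and 7 were higher and 2 lower in OSK than in GFP and likewise than in GSTA4. The shares called were 23.1%, 30.8%, 69.2% and 69.2%, where 22.2%, 29.2%, 45.9% and 47.8% of all genes tested were called, so the first pair of shares was close to the background. TYK2 read 102, 98.4 and 96.2 CPM in WT, 83.4, 89.6 and 92.7 in GFP, 98.6, 96.3 and 89.9 in GSTA4, and 310, 290 and 300 in OSK. STAT3 read 203, 193 and 194, then 177, 187 and 181, then 171, 178 and 178, and 402, 378 and 404 CPM in the same order. OSK lay far above the other groups for both genes, with log2 fold changes over GFP of 1.76 for TYK2 (SE 0.0604, adjusted p 3.14e-15) and 1.12 for STAT3 (SE 0.0549, adjusted p 1.03e-12). Over GSTA4 the values were 1.66 (adjusted p 4.52e-15) and 1.17 (adjusted p 3.38e-13). IFNAR1 rose by 0.41 in OSK over GFP (adjusted p 3.03e-05). JAK1 and JAK2 were lower in GFP than in WT, by -0.46 (adjusted p 8.37e-06) and -0.70 (adjusted p 0.000549). JAK1 was higher in OSK than in GSTA4 by 0.34 (adjusted p 3.76e-05). Its call as lower in GSTA4 than in GFP (log2 fold change -0.17, adjusted p 0.0301) was lost without GFP replicate 2 or any 1 of the GSTA4 libraries (adjusted p 0.0704 to 0.093) and with no filter (0.132). IRF3, the factor that switches on interferon genes, was lower in GFP than in WT by -0.23 (adjusted p 0.0251) and higher in GSTA4 than in GFP by 0.22 (adjusted p 0.0218). The former was lost without WT replicate 1 (0.051) or 3 (0.0669) or GFP replicate 1 (0.0545) or 2 (0.0852), and the latter without GFP replicate 1 (0.0536) or 2 (0.0792) or GSTA4 replicate 1 (0.0662) or 3 (0.0626). With no filter both were lost (0.0639 and 0.0691), and the former also with only the 6 libraries compared (0.0611). IFNAR2 had means of 0.9052, 1.556, 0.5426 and 1.424 CPM, and its call as lower in GSTA4 than in GFP (log2 fold change -1.49, adjusted p 0.0234) was lost without GFP replicate 1 (0.0542) or 2 (0.0574) and without GSTA4 replicate 1 (0.0775) or 2 (0.116).

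**Figure D5:**
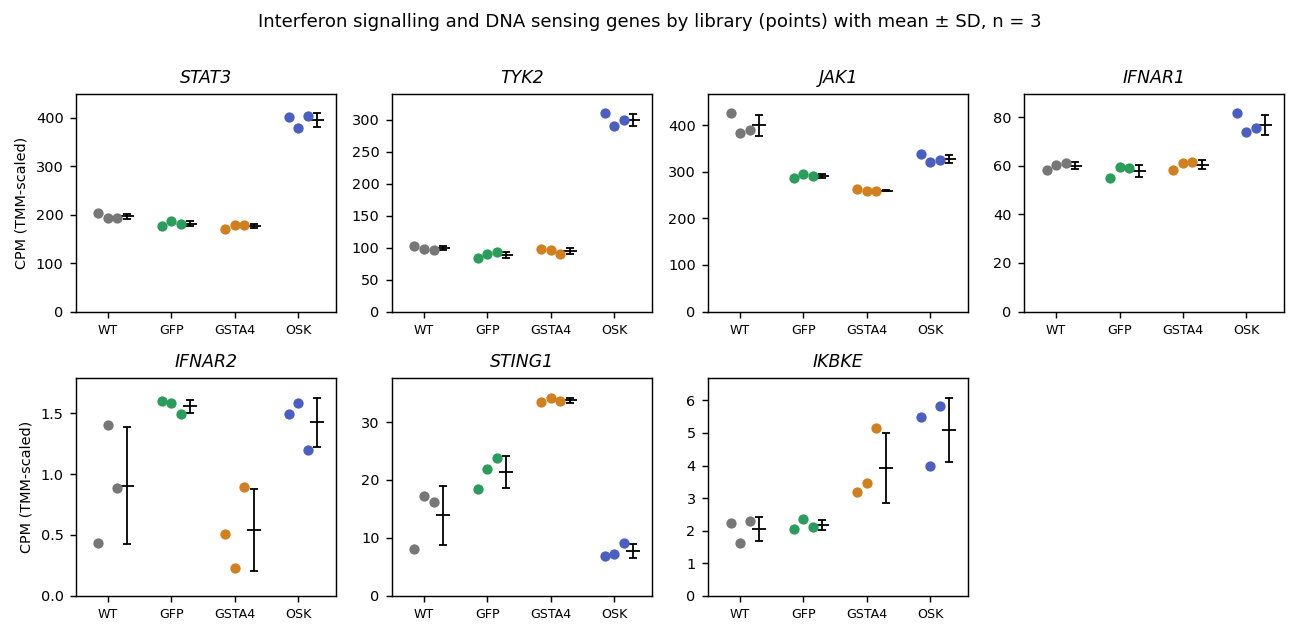
CPM after TMM scaling of 7 genes of interferon signalling and DNA sensing in each library (points, replicates 1 to 3 from left to right) by group, with the mean and SD of n = 3 beside them, each panel on its own linear axis from 0. STAT3, TYK2 and IFNAR1 are highest in OSK, and STING1 is highest in GSTA4 and lowest in OSK apart from WT replicate 1.

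Of 17 tested genes of nucleic acid sensing, 2 were higher and 2 lower in GFP than in WT, 5 and 3 in GSTA4 than in GFP, 7 and 4 in OSK than in GFP, and 3 and 5 in OSK than in GSTA4. The shares called were 23.5%, 47.1%, 64.7% and 47.1%, against 22.2%, 29.2%, 45.9% and 47.8% of all genes, so the first and the last were close to the background. STING1, the adaptor of cytosolic DNA sensing, read 8.09, 17.3 and 16.2 CPM in WT, 18.4, 21.9 and 23.8 in GFP, 33.4, 34.2 and 33.6 in GSTA4, and 6.9, 7.22 and 9.15 in OSK. GSTA4 lay above all other libraries, and OSK below GFP and GSTA4. Its log2 fold change was 0.66 in GSTA4 over GFP (SE 0.171, adjusted p 0.00628), -1.47 for OSK over GFP (SE 0.196, adjusted p 3.26e-06) and -2.12 for OSK over GSTA4 (SE 0.19, adjusted p 8.68e-09). The rise of 0.63 in GFP over WT (adjusted p 0.0169) was lost without WT replicate 1 (log2 fold change 0.35, adjusted p 0.0542), GFP replicate 2 (0.0565) or GFP replicate 3 (0.0737). IKBKE, a kinase that activates IRF3 and IRF7, rose by 1.22 in OSK over GFP (adjusted p 0.000566). LRRFIP1, a nucleic acid binding protein, read 272, 249 and 252 CPM in WT, 228, 194 and 223 in GFP, 129, 119 and 121 in GSTA4, and 137, 149 and 129 in OSK. It was lower than in GFP by -0.81 in GSTA4 (adjusted p 1.96e-08) and by -0.64 in OSK (adjusted p 2.16e-07). Its call of -0.26 in GFP against WT (adjusted p 0.0104) was lost without GFP replicate 2 (0.0793). The helicase DDX41 was lower in GFP than in WT by -0.27 (adjusted p 0.011) and higher in GSTA4 than in GFP by 0.41 (adjusted p 0.000158), the former lost without GFP replicate 1 and WT replicate 1 together (0.0552). Its value in GSTA4 against WT was 0.15 (adjusted p 0.107). TRAF6, a ubiquitin ligase, was lower than in GFP by -0.40 in GSTA4 (adjusted p 0.000725) and by -0.35 in OSK (adjusted p 0.00122). DHX58 (LGP2), a relative of RIG-I, was higher in GFP than in WT by 0.49 (adjusted p 0.0197), a call lost without WT replicate 3 (0.0594), GFP replicate 2 (0.0627) or GFP replicate 3 (0.088). In OSK against GSTA4, TRAF3 was lower by -0.61 (adjusted p 6e-06), while the adaptors MAVS and TICAM1 (TRIF) were higher by 0.20 (adjusted p 0.00506) and 0.39 (adjusted p 0.00869). The call of TICAM1 was lost without GSTA4 replicate 3 (0.0516).

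Of 15 tested negative regulators, 1 was higher and 4 lower in GFP than in WT, 2 and 0 in GSTA4 than in GFP (3 and 0 at an unadjusted p under 0.05), 2 and 5 in OSK than in GFP, and 1 and 8 in OSK than in GSTA4. The shares called were 33.3%, 13.3%, 46.7% and 60%, against 22.2%, 29.2%, 45.9% and 47.8% of all genes, so the third was close to the background. SAMHD1, a nucleotide hydrolase that limits reverse transcription and interferon induction, had means of 24.52 ± 2.68, 24.64 ± 2.57, 24.07 ± 0.764 and 79.46 ± 10.6 CPM in WT, GFP, GSTA4 and OSK (SD, n = 3). Its log2 fold change in OSK was 1.69 over GFP (adjusted p 3.47e-11) and 1.72 over GSTA4 (adjusted p 1.62e-11). SOCS3, an inhibitor of JAK signalling, was lower in GFP than in WT by -0.50 (adjusted p 0.00587). Also lower there were RNASEH2C, a subunit of RNase H2, by -0.48 (adjusted p 0.00174), the corepressor IRF2BP1 by -0.39 (adjusted p 0.0041) and the corepressor TRIM28 by -0.25 (adjusted p 0.00975), the last lost without GFP replicate 1 and WT replicate 1 together (-0.15, adjusted p 0.0768). Of the phosphatases, PTPN1 was lower in OSK by -0.33 against GFP (adjusted p 0.000129) and by -0.50 against GSTA4 (adjusted p 4.78e-07). Its rise of 0.18 in GSTA4 over GFP (adjusted p 0.0298) was lost without any 1 of the GFP libraries or GSTA4 replicate 2 or 3 (adjusted p 0.0504 to 0.0876) and with no filter (0.0683). PTPN11 was higher in GSTA4 than in GFP by 0.25 (adjusted p 0.00201) and lower in OSK than in GSTA4 by -0.34 (adjusted p 5.13e-05). Its value in GSTA4 against WT was 0.12 (adjusted p 0.101). PTPN6 was lower in OSK than in GFP by -0.48 (adjusted p 0.000972), as was RNASEH2B by -0.39 (adjusted p 0.00254). Against WT the value of RNASEH2B in OSK was -0.07 (adjusted p 0.596). IRF2BP2 was lower in OSK than in GSTA4 by -0.27 (adjusted p 0.00182).

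A further list of 57 ISGs outside the set had 43 tested genes. Of these, 12 were higher and 5 lower in GFP than in WT, 11 and 9 in GSTA4 than in GFP, 18 and 8 in OSK than in GFP, and 18 and 6 in OSK than in GSTA4. The shares called were 39.5%, 46.5%, 60.5% and 55.8%, against 22.2%, 29.2%, 45.9% and 47.8% of all genes. Their median log2 fold changes were 0.0862, -0.0185, 0.128 and 0.139, against 0.00979, 0.00824, -0.019 and -0.0136 over all genes tested. In GFP over WT, UBA7, the enzyme that activates ISG15, rose by 1.10 (adjusted p 0.000376) and MOV10, an RNA helicase, by 0.72 (adjusted p 4.48e-05), while OGFR was lower by -0.73 (adjusted p 6.83e-06) and B4GALT5 by -0.45 (adjusted p 0.000561). In GSTA4 over GFP, TENT5A rose by 0.76 (adjusted p 1.19e-06), HELZ2 by 0.77 (adjusted p 5.34e-06) and LGALS3BP by 0.42 (adjusted p 7.09e-05), while PLSCR1 was lower by -0.56 (adjusted p 0.000175). In OSK over GFP, TENT5A rose by 2.28 (adjusted p 1.43e-14), DDX60, a helicase linked to RNA sensing, by 2.21 (adjusted p 1.53e-08), SHISA5 by 0.65 (adjusted p 2.62e-07) and LGALS9 (galectin 9) by 2.78 (adjusted p 5.33e-07). In OSK against GSTA4, LGALS9 was higher by 4.58 (adjusted p 4.8e-09) and TENT5A by 1.52 (adjusted p 2.95e-12), while TRIM14 was lower by -1.60 (adjusted p 4.86e-09) and HELZ2 by -1.13 (adjusted p 9.36e-09). The count called in GFP against WT was 10 instead of 17 when the 6 libraries compared were fitted alone. In GSTA4 against GFP it was 13 instead of 20 without GFP replicate 2 or GSTA4 replicate 2.

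Calls were also counted by promoter letters. Among the 19 tested genes with an ISRE match, 6 were higher in GFP than in WT, 3 in GSTA4 than in GFP, 7 in OSK than in GFP and 3 in OSK than in GSTA4. Among the 10 tested genes with a window but no match, the counts were 4, 2, 5 and 7. Of all genes tested, 11%, 14.7%, 23.1% and 24.1% were higher. Lower were 0, 1, 1 and 1 gene with the match and 0, 0, 2 and 2 without it (edgeR, with the same counts at an unadjusted p under 0.05 but for 1 gene with the match in GFP against WT). The median log2 fold changes were 0.318 with and 0.268 without the match in GFP against WT, 0.122 and 0.046 in GSTA4 against GFP, 0.452 and 0.31 in OSK against GFP, and 0.277 and 0.381 in OSK against GSTA4. The difference between these classes of gene was not tested. Of the genes with an ISRE match printed above, ISG15, IFI6, IFIT1, IFITM3 and OAS3 were called higher in OSK over GFP, and ISG20 lower. They also differed elsewhere. ISG15, IFIT1 and IFITM3 were called higher in GSTA4 over GFP, where ISG20 was called lower. OAS3 and ISG20 were called higher in GFP over WT. IFI6 was called in neither of these comparisons.

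With WT in place of GFP as the control, 16 ISGs were higher and none lower in GSTA4 (20 and 0 at an unadjusted p under 0.05), and 21 were higher and 1 lower in OSK. That is 48.5% called for GSTA4, where 38.6% of all genes tested were called (19.7% higher and 19% lower), and 66.7% for OSK, where 45.4% were (22.7% higher and 22.7% lower). The lower gene was IRF7, at -0.77 (adjusted p 4.16e-06). IFIT2 was then higher by 1.88 in GSTA4 (adjusted p 4.97e-06) and by 2.10 in OSK (adjusted p 5.17e-07), MX1 by 2.01 (adjusted p 0.000289) and 2.45 (adjusted p 1.57e-05), and OAS3 by 1.52 (adjusted p 0.000613) and 2.16 (adjusted p 5.39e-06). SAMD9L was higher by 3.25 in GSTA4 (adjusted p 6.38e-05), and in OSK its value was 1.20 (adjusted p 0.12), against -0.42 over GFP (adjusted p 0.544). It had 4, 9 and 3 reads in the WT libraries, so its sizes over WT are imprecise.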

How the data were processed

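Raw read counts per gene in 12 libraries were deposited by the authors as a single table of whole numbers. Reads were processed with STAR 2.7.1a and featureCounts 1.6.2, per the submitters' processing notes, which list GRCh38/hg38 and GRCm38/mm10 with no role. The annotation release, strand setting and treatment of reads with several matches are not given in the sources used here. Libraries were made with an NEBNext Ultra II kit after poly(A) selection, per the labels' protocols. Of 60605 lines, 20014 without a symbol, holding 0.485% to 0.822% of reads, were left out.

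The tests ran in R 4.3.3 with edgeR 4.0.16 (limma 3.58.1 loaded): filterByExpr (15179 genes kept), TMM scaling, and the quasi-likelihood test in 1 fit of all 12 libraries with a mean per group. P-values are two-sided and adjusted by Benjamini-Hochberg over all genes tested within a comparison. Standard errors are the log2 fold change over the root of F, and folds use edgeR's prior count of 0.125. CPM use TMM-scaled library sizes. Total named counts per library were 12526826 to 16940870, with a biological coefficient of variation of 7.91% in common. The fit was checked on simulated counts. No pair of the 12 libraries, within or between groups, was alike within sampling noise. Exon overlap came from GENCODE 29 on GRCh38 and promoters from RefSeq (GRCh38.p14).

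The genes and lists were chosen with earlier results of these data known. Full values are given for up to 6 called genes per comparison with the largest change and a mean of at least 1 CPM, for relatives of these that were not called, with fold changes and adjusted p for up to 4 called genes per pathway list and comparison with the lowest adjusted p and a mean of at least 1 CPM; other genes are summarised. A gene of the pathway lists that this rule selects is counted with its list, but its values are not reported here. SP110, IFI35, IFIH1, HERC5, BST2 and CMPK2 are named by role. Alternatives were DESeq2 1.42.0, scaling by RLE or by library size alone, no filter or one on a mean of 1 CPM, the replicate number as a block, only the libraries compared, WT as the control and each library left out. Leaving out GFP replicate 1 with WT replicate 1, or with no filter, was chosen after seeing the data.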

Additional observations from a re-analysis of the deposited data

How the results depend on the processing

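Of 22 counts of called genes, 13 stayed within 1.5 times their value under every alternative, and 308 of 321 alternative values did. Of the ISGs called, 6 of 12 (GFP against WT), 6 of 9 (GSTA4 against GFP), 14 of 19 (OSK against GFP) and 10 of 15 (OSK against GSTA4) were called under every alternative other than WT as the control and those chosen after seeing the data. OAS1 in OSK against GFP was called under all of these but the filter on a mean of 1 CPM, where it was not tested. Leaving out 1 library at a time gave 7 to 13 higher, 0 to 1 lower and 7 to 14 called in GFP against WT, 2 to 3 lower in OSK against GFP, and 13 to 16 of the further ISGs called in GSTA4 against GFP. With only the 6 libraries compared, 10 further ISGs were called in GFP against WT. With WT as the control, 16 were higher, 0 lower and 16 called for GSTA4, and 1 was lower for OSK. With no filter, 2 were lower in GSTA4 than in GFP. WT as the control turned the sign of 5 of the 33 ISGs for GSTA4 and 4 for OSK. Of these, SP110 (0.54) for GSTA4 and ISG20 (0.10) and DTX3L (0.29) for OSK were called with 1 of the controls, as was IRF3 (-0.0040) of the pathway lists for GSTA4; STAT2, IFIH1, DTX3L and IFI35 for GSTA4 and EIF2AK2 and SAMD9L for OSK were called with neither. Besides IRF3, ISG15 and ISG20, named genes called over GFP but not over WT were IFNAR2 (-0.69), PTPN11 (0.12), PTPN1 (0.14) and DDX41 (0.15) for GSTA4. For OSK they were IRF9 (-0.22), IFI16 (-0.61) and RNASEH2B (-0.07). The cause was not tested. The correlation of deviations from the group means was over 0.1 in 3 of 18 pairs of same-numbered libraries (-0.0193 to 0.153, against -0.0982 to 0.077 for different numbers), and 6 of 12 libraries correlated best with their own number. Since not every pair passed 0.1, the numbers were not taken as pairs. With the replicate number as a block, 14 and 0, 8 and 1, 16 and 3, and 12 and 5 ISGs were higher and lower in the 4 comparisons in the order above. Without GFP replicate 1 and WT replicate 1 together, 11 and 0, 7 and 1, and 17 and 3 were, in the first 3. Depth limits the genes below 1 CPM, for which a few reads decide the value.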
